A study of Mus musculus with 9 samples.

Results

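The receptors of the IL-1 family were read in 9 RNA-seq libraries of mouse regulatory T (Treg) cells, the T cells that restrain immune responses. The family was taken as the rows of 8 named genes, of which 7 (Il1rl1, Il1r2, Il18r1, Il18rap, Il1rap, Sigirr and Il1r1) had values among the 13698 genes of the table, and Il1rl2 was not analysed here. Il1rl1 and Il1r2 were selected on their low levels in the deficient cells of these libraries, so their values are a description and carry no test. The other 5 rows were taken by family name. Levels are CPM, values on a scale of counts with a common library total, computed from the deposited log2 values. Every library has the same lowest and highest value, as quantile normalization gives, so a level is not a plain scaled count. Differences for genes near the bottom of the scale are given in log2(CPM + 1), except where log2 alone or the deposited log2 scale is named.

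All libraries came from T regulatory cells of spleen and lymph node of female mice on a C56Bl6/129 mix background, in 3 groups of 3 libraries. The deficient cells (mice 142114, 232614 and 432614) were sorted as YFP+ and MHCII- from LRFffThpokff Foxp3 Cre-YFP/X mice, in which Cre acts on floxed alleles of Thpok (gene Zbtb7b) and LRF (gene Zbtb7a), a pair of zinc finger transcription factors. The animal controls were YFP-, MHCII- and CD25hi cells of those same 3 mice, which lack YFP, the mark of Cre in these mice. The genetic controls (mice 124, 8619 and 8800) were YFP+ and MHCII- cells of WT Foxp3 Cre-YFP/X mice, which share the Cre allele and the gate with the deficient cells but not the mice. Cre is made from the Foxp3 gene, so deletion follows the start of Foxp3 expression. Foxp3 is X-linked, so each such female holds both YFP-positive and YFP-negative Treg cells. No age of the mice is given in the sources used here.

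Receptors of this family bind a cytokine through immunoglobulin-like domains outside the cell. Most signal through a TIR domain inside it, which recruits MyD88 and IRAK kinases and leads to NF-kB. ST2, encoded by Il1rl1, binds the alarmin IL-33 and marks Treg cells of an effector or tissue type. IL1R2 lacks the TIR domain and is a decoy that captures IL-1 without signalling. IL1RAP is the partner chain shared by the receptors for IL-1, IL-33 and IL-36, IL18R1 and IL18RAP form the receptor for IL-18, and SIGIRR is an inhibitory member.

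On GRCm38, Il1r2 (40074079 to 40125231), Il1r1 (40225080 to 40317257), Il1rl1 (40429570 to 40465415), Il18r1 (40465552 to 40500854) and Il18rap (40515362 to 40551705) lie in that order on the plus strand of chromosome 1, with Il1rl2 between Il1r1 and Il1rl1. This cluster of 6 receptor genes spans 477.6 kb, and Il1rl1 ends 136 bases before Il18r1 starts. Il1rap (26581704 to 26730117) is on chromosome 16 and Sigirr (141091175 to 141100572) on chromosome 7. The promoters of Il1rl1 and Il1r2, the pair selected on its low deficient values, are shown for their sequence content. Those of Il18rap and Il1r1, also near the bottom of the scale in the deficient cells, are not shown. Windows are from RefSeq (GRCm38.p6, plus strand) and run from 250 bases before to 50 after a start site. RefSeq gives Il1rl1 a distal and a proximal start site 10059 bases apart, and gives Il1r2 a start 12014 bases inside the GENCODE gene. Capitals mark matches on either strand to a GATA motif (the letters AGATAA and also AGATAG, and with a T in place of the opening A, TGATAA and also TGATAG), a RUNX motif (TGTGGT) or a STAT5 motif (TTCNNNGAA), and no match overlapped another.
Il1rl1, distal start, chr1:40429320-40429619: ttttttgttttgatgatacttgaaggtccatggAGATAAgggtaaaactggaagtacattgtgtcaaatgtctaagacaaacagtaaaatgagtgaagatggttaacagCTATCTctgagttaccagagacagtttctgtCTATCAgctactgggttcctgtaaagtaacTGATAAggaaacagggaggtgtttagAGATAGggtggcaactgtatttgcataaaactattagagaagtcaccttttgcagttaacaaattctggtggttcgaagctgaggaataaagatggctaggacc
Il1rl1, proximal start, chr1:40439379-40439678: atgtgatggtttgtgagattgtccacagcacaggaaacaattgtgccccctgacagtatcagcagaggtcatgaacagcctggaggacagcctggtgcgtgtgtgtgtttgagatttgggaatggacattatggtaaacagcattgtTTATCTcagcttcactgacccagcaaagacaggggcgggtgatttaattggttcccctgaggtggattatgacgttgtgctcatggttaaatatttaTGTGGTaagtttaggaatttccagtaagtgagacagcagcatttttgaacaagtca
Il1r2, chr1:40085843-40086142: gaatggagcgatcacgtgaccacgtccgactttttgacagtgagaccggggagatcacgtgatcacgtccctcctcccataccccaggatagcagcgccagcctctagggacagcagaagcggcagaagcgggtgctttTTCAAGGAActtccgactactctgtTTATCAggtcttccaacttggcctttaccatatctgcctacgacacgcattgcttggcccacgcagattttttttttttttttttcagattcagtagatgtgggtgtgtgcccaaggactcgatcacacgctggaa
The distal Il1rl1 window held 5 GATA matches, at positions -217, -141, -110, -80 and -54 from the start site, and the proximal window held 1 GATA match and 1 RUNX match. The Il1r2 window held 1 GATA match and 1 STAT5 match. Of 32851 RefSeq promoter windows of the same length, 29.8% held at least 1 GATA match, 16.8% a RUNX match and 8.30% a STAT5 match. At least 5 GATA matches stood in 18 windows, or 0.0548%, a number set after the Il1rl1 window was seen. An AP-1 motif (TGANTCA), present in 7.81% of windows, was searched as well and gave no match in these 3. These are matches of letters and no measure of binding, and the values per gene do not tell which start site was used or separate membrane from soluble ST2.

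As a check of the labels, Zbtb7b measured 0.147 to 0.367 CPM in the deficient cells, against 92.1 to 149 CPM for the genetic and 76.9 to 106 CPM for the animal controls. Zbtb7a gave no such contrast, at 78.8 to 103 CPM in the deficient cells, 69.5 to 112 CPM for the genetic and 90.6 to 129 CPM for the animal controls, and a value per gene does not show whether a floxed exon is lost. Foxp3, the factor that defines Treg cells, measured 26.5 to 35.9 CPM in the deficient cells, 24.8 to 38.1 CPM for the genetic and 754 to 999.7 CPM for the animal controls, so that both YFP-positive groups were low in it. All 9 listed Treg and T cell markers had values, and some differed between groups. Cd4, the co-receptor of helper T cells, averaged 355 CPM in the deficient cells and fell against both the genetic controls at 866 CPM and the animal controls at 889 CPM (limma adjusted p = 0.00488 and 0.00338). Cd3e, a chain of the T cell receptor complex, rose against the genetic controls, from 906 to 1255 CPM (limma adjusted p = 0.0398). Foxp3 and Il2ra, the latter encoding CD25, fell against the animal controls (limma adjusted p = 5.18e-05 and 0.0497), which were gated as CD25hi. Whether these shifts have a part in the receptor results was not tested. Genetic control 8619 stood apart, with summed monocyte, macrophage and dendritic cell markers (8 of 12 listed) of 358 CPM against 14.2 to 19.0 CPM in the other genetic controls, 26.1 to 73.3 CPM in the deficient cells and 6.08 to 14.5 CPM in the animal controls. Animal control 232614 had the lowest mean correlation with the other libraries among the animal controls (0.760). The deficient libraries were alike in this, at 0.760 to 0.762, and genetic control 8619 was at 0.758. Deficient cells could hold fewer cells with a transcript or less of it per cell, and bulk RNA does not tell these apart.

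Il1rl1 and Il1r2 were near the bottom of the scale in every deficient library and well above it in every control library. Il1rl1 measured 0.0248, 0.00457 and 0.0612 CPM in deficient mice 142114, 232614 and 432614. In the YFP-negative cells of the same mice it measured 23.4, 10.4 and 29.0 CPM, and in genetic controls 124, 8619 and 8800 it measured 10.4, 10.8 and 9.16 CPM. The 3 deficient libraries thus lay below all 6 control libraries, and the 2 control groups overlapped. Group means were 0.0302 ± 0.0287 CPM (SD, n = 3) in the deficient cells, 10.1 ± 0.834 for the genetic and 20.9 ± 9.57 for the animal controls. In log2(CPM + 1) the deficient cells differed from the genetic controls by -3.43 ± 0.63 (SE, n = 3 against 3) and from the animal controls by -4.30 ± 0.63.

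Il1r2, the decoy receptor, measured 0.0120, 0.0620 and 0.0260 CPM in the deficient cells of mice 142114, 232614 and 432614. It measured 81.3, 58.4 and 75.4 CPM in the YFP-negative cells of those mice and 20.4, 16.5 and 17.8 CPM in genetic controls 124, 8619 and 8800. Here the 3 groups were separate from each other, with the deficient cells lowest, the genetic controls between and the animal controls highest. The means were 0.0333 ± 0.0258, 18.2 ± 1.97 and 71.7 ± 11.9 CPM (SD, n = 3) in that order. The deficient cells differed by -4.21 ± 0.52 from the genetic and by -6.12 ± 0.52 from the animal controls in log2(CPM + 1) (SE), and the genetic differed from the animal controls by -1.91 ± 0.52. Separation of this kind, with every genetic control below every animal control, was found for 5.57% of all genes.

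The low values of the pair can be read in steps, because many genes share each of the lowest values within a library. Il1rl1 stood at the third-lowest distinct value in deficient library 142114, shared by 110 genes, at the lowest value in 232614, shared by 1551 genes, and at the third-lowest in 432614, shared by 136 genes. Il1r2 stood at the second-lowest, third-lowest and second-lowest value in those libraries, shared by 283, 138 and 343 genes. Differences between the deficient libraries within this range are therefore a step or 2 of the scale. In the control libraries between 40.6% and 58.0% of all genes lay below Il1rl1 and between 48.5% and 79.4% below Il1r2, against at most 13.9% for both genes in the deficient cells. Of 7692 genes that averaged 10 CPM or more in each control group, 12 (0.156%) were under 0.1 CPM in every deficient library. Il1rl1, Il1r2 and Il18rap were 3 of those 12. Il1rl1 and Il1r2 were selected on these same low values, so nothing is read from their place there. Il18rap met the cut by its group means, with a library at 0.00660 CPM among the genetic and at 0.00789 CPM among the animal controls.

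**Figure D1:**
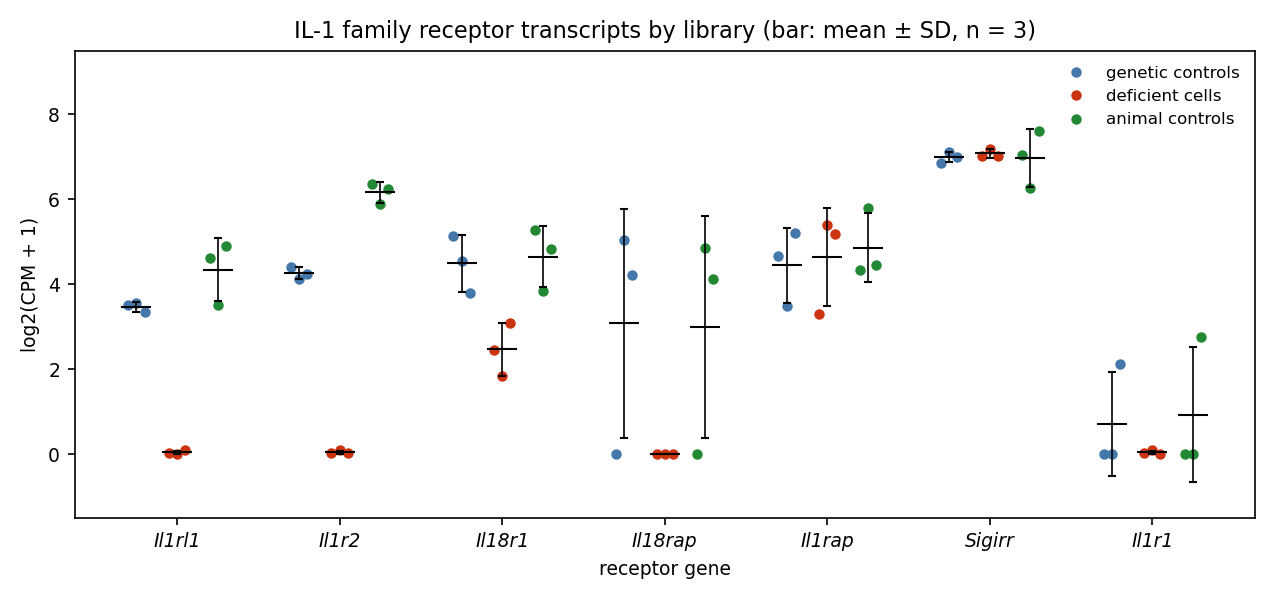
Levels of 7 IL-1 family receptor genes in log2(CPM + 1) on the vertical axis, with a point for each of 9 libraries and a bar for the mean ± SD of each group (n = 3). Il1rl1 and Il1r2 lie near 0 in all 3 deficient libraries, Il18rap and Il1r1 are split within the control groups, and Sigirr and Il1rap overlap between groups.

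Both chains of the IL-18 receptor had lower means in the deficient cells, and neither passed the test. Il18r1, the chain that binds IL-18, measured 4.45, 2.61 and 7.56 CPM in deficient mice 142114, 232614 and 432614, against 37.8, 13.5 and 27.4 CPM in the YFP-negative cells of the same mice and 34.4, 22.3 and 13.0 CPM in genetic controls 124, 8619 and 8800. All 3 deficient libraries lay below all 6 controls, and within each mouse the deficient cells were lower. The log2 difference was -2.28 ± 0.65 against the genetic controls (limma adjusted p = 0.195, between 0.174 and 0.390 without 1 library) and -2.44 ± 0.65 against the animal controls (limma adjusted p = 0.152, between 0.151 and 0.314 without 1 library).

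Il18rap, the signalling partner of IL18R1, stood at the lowest value of the table (0.00457 CPM) in all 3 deficient libraries. The control libraries were split. It measured 31.9 and 17.5 CPM in genetic controls 8619 and 8800 but 0.00660 CPM in 124, and 28.0 and 16.4 CPM in animal controls 232614 and 432614 but 0.00789 CPM in 142114. The separation of the deficient cells from all controls therefore rests, for 1 library in each control group, on the step between the lowest and second-lowest values. On the deposited log2 scale the limma adjusted p was 0.480 against the genetic and 0.423 against the animal controls. It was between 0.200 and 0.734 over both comparisons without 1 library. In log2(CPM + 1) the differences were -3.08 ± 1.46 and -2.99 ± 1.46 (limma adjusted p = 0.492 and 0.461). Summed NK cell markers (5 of 8 listed), given because NK cells carry this receptor, were 7.41 to 17.1 CPM in the deficient cells, 4.84 to 25.6 CPM for the genetic and 5.24 to 17.7 CPM for the animal controls.

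The shared partner chain and the inhibitory receptor did not pass the test and overlapped between groups. Il1rap measured 28.5 ± 17.2 CPM (SD, n = 3) in the deficient cells, 23.4 ± 12.9 in the genetic and 31.6 ± 19.9 in the animal controls. Its log2 difference was 0.18 ± 0.73 against the genetic controls and -0.25 ± 0.73 against the animal controls (limma adjusted p = 0.979 and 0.956), with errors larger than or near to the differences themselves. Without both genetic control 8619 and animal control 232614 these differences were -0.33 and 0.23. Sigirr measured 129, 145 and 129 CPM in deficient mice 142114, 232614 and 432614, 116 to 137 CPM for the genetic and 76.5 to 195 CPM for the animal controls. On the log2 scale it differed by 0.09 ± 0.30 and 0.11 ± 0.30 from them (limma adjusted p = 0.968 and 0.954), and the second was -0.25 without those 2 libraries. Il1r1, the signalling receptor for IL-1, was at or under 0.0620 CPM in 7 of 9 libraries, and measured 3.35 CPM in genetic control 8800 and 5.79 CPM in animal control 432614 (limma adjusted p = 0.956 and 0.947 for the deficient cells against the 2 control groups).

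Across the family, 4 of 7 receptors had every deficient library below every genetic control, where 7.28% of all genes did, and the same 4 were below every animal control, where 8.10% of all genes were. These 4 were below all 6 control libraries, as were 3.33% of all genes. The pair selected on its low values is among the 4, and Il18rap is there by a step of the scale, so nothing is read from the count. Of the 7, 0 lay above the genetic controls in every deficient library (8.44% of all genes), 0 above the animal controls (7.85%), and 0 were higher in every genetic than in every animal control (4.88%). Between the control groups none of the 5 receptors taken by name passed the test in limma (5 of 13698 genes, or 0.0365%, did), with adjusted p between 0.975 and 1.

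**Figure D2:**
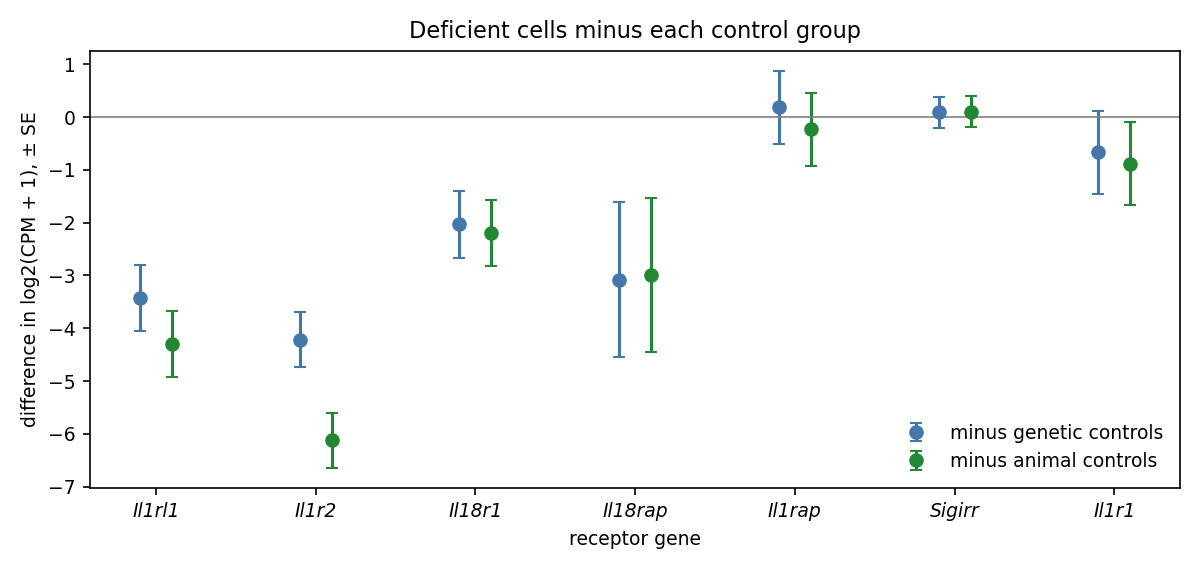
Difference in log2(CPM + 1) between the deficient cells and the genetic controls or the animal controls for each receptor, with SE bars from the limma model (n = 3 against 3). The differences run from -6.12 for Il1r2 to 0.18 for Il1rap, and the bars of Il1rap and Sigirr cross 0 in both comparisons and that of Il1r1 against the genetic controls.

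Compared per kilobase of annotated exon, Sigirr was highest in the control cells, with 41.5 ± 3.43 CPM per kb in the genetic and 44.0 ± 19.6 in the animal controls (SD, n = 3). Il1r2 came next, at 9.56 ± 1.03 and 37.6 ± 6.23 CPM per kb, a spread that overlapped that of Sigirr in the animal controls. Il18r1 (4.83 ± 2.23 and 5.44 ± 2.53), Il18rap (2.44 ± 2.37 and 2.20 ± 2.09), Il1rap (2.06 ± 1.13 and 2.78 ± 1.75) and Il1rl1 (1.47 ± 0.121 and 3.04 ± 1.39) followed. That order held in the genetic controls, while in the animal controls Il1rl1 stood above Il1rap and Il18rap, and in both groups neighbours among these 4 overlapped in spread. Il1r1 was lowest (0.176 ± 0.304 and 0.304 ± 0.525). In the deficient cells Sigirr (44.2 ± 3.05), Il1rap (2.51 ± 1.52) and Il18r1 (1.01 ± 0.519) were the receptors above 0.1 CPM per kb.

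Around the receptor cluster, 2 other coding genes within 300 kb had values. Map4k4, a kinase gene upstream of Il1r2, measured 70.3 ± 7.75 CPM in the deficient cells, 78.2 ± 32.5 in the genetic and 61.8 ± 37.2 in the animal controls (limma adjusted p = 0.995 and 0.824). Mfsd9, a transporter gene beyond Il18rap, measured 1.88 ± 2.06 CPM in the deficient cells and it averaged 0.00602 and 0.00568 CPM in the genetic and animal controls (limma adjusted p = 0.480 and 0.419). The other 4 flanking genes were not analysed here. Within the cluster, Il1r2, Il1r1, Il1rl1 and Il18rap all averaged under 0.1 CPM in the deficient cells, and Il18r1 averaged 4.87 ± 2.50 CPM. Il1r1 was as low in 4 of the 6 control libraries as well.

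**Figure D3:**
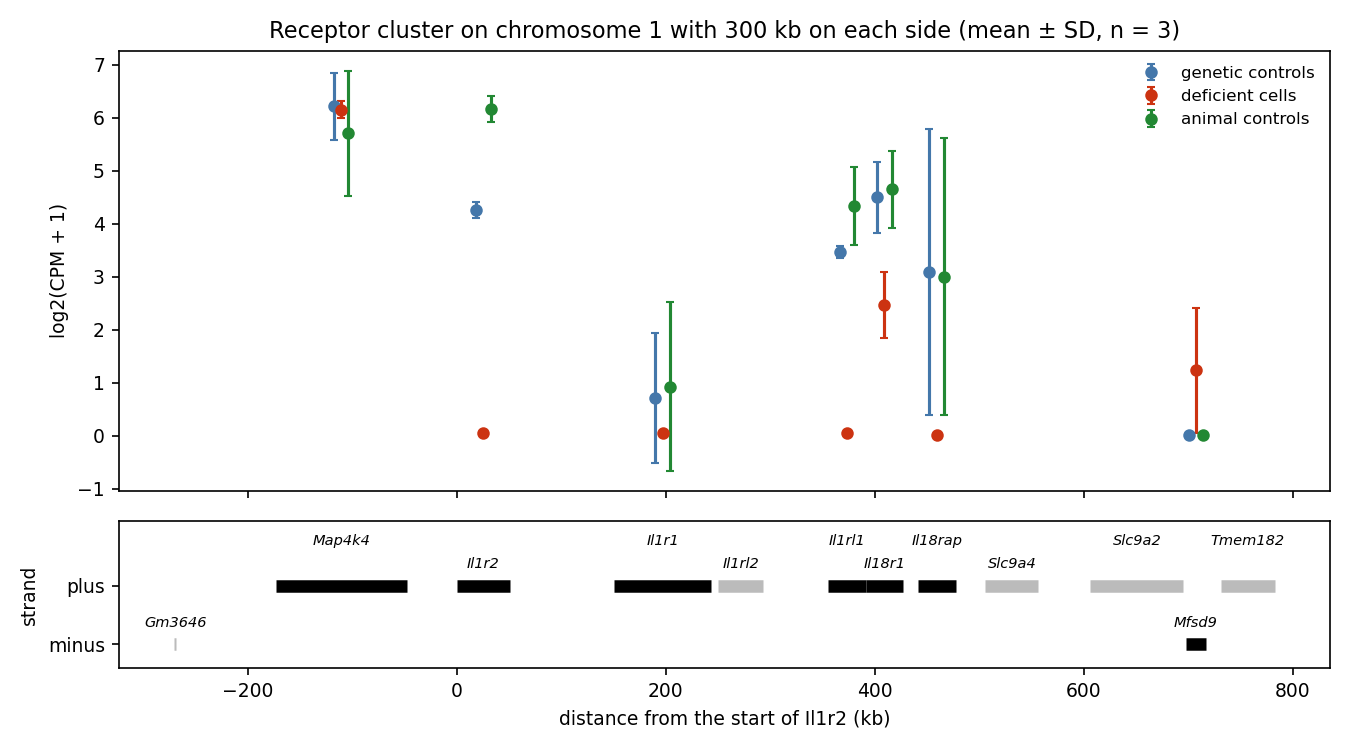
Mean level ± SD (n = 3) in log2(CPM + 1) of the measured coding genes of the chromosome 1 receptor cluster and its flanks, placed by distance in kb from the start of Il1r2, with a strand map below in which grey genes have no value. Deficient cells lie near 0 at Il1r2, Il1r1, Il1rl1 and Il18rap, with the controls also low at Il1r1, overlap the controls at Map4k4, and average 4.87 CPM at Il18r1.

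Other cell types, among them those that carry ST2 or IL1R2, were read through their markers. Mast cell and basophil markers (3 of 12 listed had values) summed to 1.09 to 25.2 CPM in the deficient cells, 0.484 to 32.6 CPM in the genetic and 0.970 to 20.6 CPM in the animal controls, ranges that overlap. The only neutrophil marker measured of 12 listed, Mmp9, was under 8 CPM in every library. Markers of group 2 innate lymphoid cells (4 of 7 listed) summed to 0.0183 to 10.9 CPM in the deficient cells, 8.21 to 19.6 CPM in the genetic and 13.0 to 56.7 CPM in the animal controls, so that every deficient library lay below every animal control while overlapping the genetic controls through deficient library 432614. In that list Il9r, the IL-9 receptor, which T cells also carry, was at the lowest value in all 3 deficient libraries and measured 9.23 ± 5.36 and 16.0 ± 4.48 CPM in the controls. Nmur1 was at the lowest value in all 3 deficient libraries and under 0.01 CPM in the genetic controls, and reached 5.51 and 34.4 CPM in animal controls 432614 and 232614. Il17rb reached 10.9 CPM in deficient library 432614, 4.42 CPM in a genetic and 13.5 CPM in an animal control, and Arg1 was at most 2.24 CPM in every library. B cell markers (6 of 9 listed) summed to 54.7 to 71.7 CPM in the deficient cells, above the 13.8 to 30.5 CPM of the genetic controls without overlap, and to 58.0 to 118 CPM in the animal controls. The part of any of these cells in the Il1rl1 and Il1r2 results was not tested. Without genetic control 8619 and animal control 232614, Il1rl1 differed on the deposited log2 scale by -9.00 from the genetic and -10.4 from the animal controls. With all libraries these differences were -9.04 and -9.97.

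Genes linked to ST2-positive Treg cells of tissues were read from a list of 23 measured genes, written with some of their values in these libraries known, so that its direction is not independent evidence. In the list 0 genes rose and 3 fell against the genetic controls (limma, FDR under 0.05), where 0.336% of all genes rose and 0.533% fell, and 0 rose and 4 fell against the animal controls, where 0.307% rose and 0.584% fell. The list's median log2 difference was -1.82 and -2.89, beside 0.04 and 0.04 over all genes. Cxcr6, a chemokine receptor, measured 0.0120, 0.167 and 0.136 CPM in deficient mice 142114, 232614 and 432614, 23.6 to 78.7 CPM for the genetic and 56.2 to 96.1 CPM for the animal controls (limma adjusted p = 0.00468 and 0.00271). Klrg1, which marks terminally differentiated lymphocytes, measured 0.0120 to 0.0612 CPM in the deficient cells, 3.56 to 44.2 CPM in the genetic and 28.4 to 65.8 CPM in the animal controls (limma adjusted p = 0.00985 and 0.00338). Tigit, another inhibitory receptor, measured 0.268 ± 0.185 CPM against 13.0 ± 9.93 and 31.0 ± 6.30 CPM (limma adjusted p = 0.0447 and 0.0124). The co-stimulatory receptor gene Icos fell against the animal controls, from 84.9 ± 10.8 to 22.3 ± 6.43 CPM (log2 difference -1.96 ± 0.30, limma adjusted p = 0.0138). Against the genetic controls at 59.8 ± 3.52 CPM it did not pass (limma adjusted p = 0.0638).

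Some of those calls were lost when 1 library was left out of the fit, in which all libraries share 1 estimate of the spread. Leaving out any 1 animal control kept the Tigit difference from the genetic controls at -5.67 on the deposited log2 scale, and the call was still lost. Against the genetic controls, Klrg1 missed the threshold without genetic control 8619 (limma adjusted p = 0.0558) or 8800 (0.0618) and in log2(CPM + 1) (0.0745). Tigit missed it there without any 1 of the 9 libraries (0.0662 to 0.175), in log2(CPM + 1) (0.0861) and without the trend (0.0608). Against the animal controls, Icos missed it without animal control 142114 (0.0621) or 432614 (0.0754), and Tigit without animal control 142114, 232614 or 432614 (limma adjusted p = 0.0605, 0.0528 and 0.0714). Cxcr6 passed in every fit without 1 library, with adjusted p up to 0.0350 and 0.0241 in the 2 comparisons. Some list members passed in log2(CPM + 1) alone of these 2 scales. They were Ccr2 against the genetic controls (limma adjusted p = 0.0479), and Ccr8 and Maf against the animal controls (0.0460 and 0.0360). With only the 6 libraries compared in the fit, the list had 0 calls against the genetic controls (limma adjusted p = 0.0838 for Cxcr6, 0.0958 for Klrg1 and 0.199 for Tigit). Against the animal controls that fit lost Icos and Tigit (limma adjusted p = 0.0688 and 0.0682). Without both genetic control 8619 and animal control 232614 the list had 0 called members in either comparison, with limma adjusted p from 0.0654 for Cxcr6 against the animal controls to 0.242 for Tigit against the genetic controls. With the mouse as a fixed term in the 6 libraries of the shared mice, no call against the animal controls held (limma adjusted p between 0.244 and 0.284), and no gene of the whole table passed in that fit (0 of 13698, with 1395 at an unadjusted p under 0.05).

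None of the transcription factors measured in that list passed the test with all libraries. Gata3, a factor that drives Il1rl1 in helper T cells, measured 237, 218 and 287 CPM in deficient mice 142114, 232614 and 432614, within the range of the genetic controls (194 to 283 CPM) but for the last of the 3 (log2 difference 0.09 ± 0.18 and 0.01 ± 0.18 against the 2 control groups, limma adjusted p = 0.929 and 0.998). Batf, a factor of effector Treg cells, measured 28.2, 2.42 and 7.50 CPM in those mice, below all 6 controls, which ran from 59.8 to 104 CPM. It did not pass the test (log2 difference -3.20 ± 0.73 and -3.38 ± 0.73, limma adjusted p = 0.0955 and 0.0769), though it did without deficient library 142114 (0.0138 and 0.00983). Maf, at 1.75 to 15.5 CPM in the deficient cells, and Rora, at 19.25 to 27.27 CPM, also lay below all 6 controls. Against the animal controls Maf passed without deficient library 232614 (limma adjusted p = 0.0151) and in log2(CPM + 1) (0.0360). Irf4, Nfil3, Prdm1 and Id2 each overlapped a control group. Itgae, the integrin chain of tissue-resident lymphocytes, was the member above every control library in every deficient library. It measured 481 ± 47.1 CPM against 212 ± 55.1 and 249 ± 111 CPM (limma adjusted p = 0.184 and 0.240). Of all genes, 8.44% lay above every genetic control and 7.85% above every animal control. Against the genetic controls Itgae passed without animal control 232614 (limma adjusted p = 0.0483). In all, 9 of the 23 genes lay below all 6 controls in the deficient cells, where 3.33% of all genes did. The list was written with some of these values known, so nothing is read from that count.

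**Figure D4:**
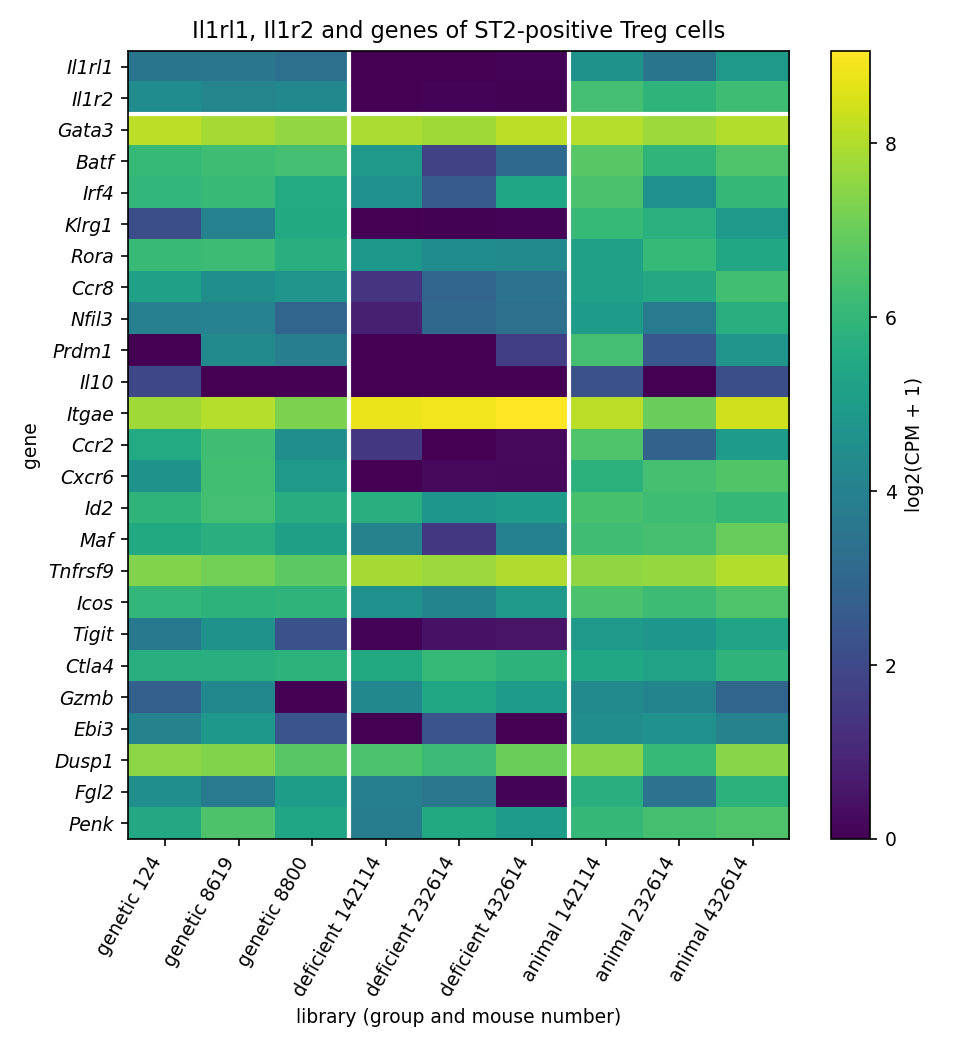
Heat map of log2(CPM + 1), colour scale from 0, for Il1rl1 and Il1r2 (top) and 23 genes linked to ST2-positive Treg cells, with a column for each of 9 libraries grouped as genetic controls, deficient cells and animal controls. Klrg1, Cxcr6 and Tigit are dark in the deficient columns as Il1rl1 and Il1r2 are, Gata3 has a like colour in all 9 columns, and Itgae is brightest in the deficient columns.

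Downstream of the receptors, 0 of 22 measured proximal signalling genes rose and 0 fell in either comparison (limma, FDR under 0.05, 0.869% and 0.891% of all genes called), with median log2 differences of 0.05 and 0.38. Myd88, the adaptor of the family, measured 82.0 ± 17.2 CPM in the deficient cells, 92.6 ± 16.6 in the genetic and 57.0 ± 37.2 in the animal controls (limma adjusted p = 0.941 and 0.580). Irak3, an inhibitory member of the IRAK kinases, had the lowest deficient values of that list, at 0.0305 ± 0.0291 CPM against 12.4 ± 5.09 and 15.5 ± 13.3 CPM, with animal control 232614 at 0.157 CPM. It did not pass the test (limma adjusted p = 0.0889 and 0.147), though it did without animal control 232614 (0.0292 and 0.0312). Irak3 was the 1 of 22 proximal signalling genes that lay below all 6 controls in the deficient cells. Of all genes 3.33% did, and nothing is read from the count.

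Among 16 NF-kB subunits and inhibitors, 0 rose and 0 fell in either comparison by limma, where 0.869% and 0.891% of all genes were called, and the median log2 difference was -0.26 against the genetic and -0.43 against the animal controls. Rela, a subunit of NF-kB, and Nfkbia, its inhibitor and target, were the 2 members below all 6 controls, where 3.33% of all genes were. Nfkbia measured 521 ± 41.4 CPM in the deficient cells, 684 ± 72.7 in the genetic and 705 ± 27.2 in the animal controls (log2 difference -0.39 ± 0.11 and -0.44 ± 0.11, limma adjusted p = 0.163 and 0.112). Of the ligands and antagonists, 2 of 11 listed had values and 0 were called. Il1rn, the receptor antagonist, was at the lowest value in all 3 deficient libraries but also in genetic controls 124 and 8800 and animal control 232614, and Il18bp, which binds IL-18, overlapped between groups (limma adjusted p = 0.949 and 0.987). Of toll-like receptors and TIR adaptors, some of which share the MyD88 pathway, 0 of 11 measured members rose and 0 fell at the same shares of all genes. Their median log2 differences were 0.28 and 1.24 (0.27 and 0.15 in log2(CPM + 1)). In that list Tlr12, a toll-like receptor, was above all 6 controls in every deficient library. It measured 26.2 to 62.4 CPM against at most 17.3 CPM (limma adjusted p = 0.493 and 0.461). Of all genes, 8.44% lay above every genetic control and 7.85% above every animal control. Sarm1 and Unc93b1 were below all 6 controls, as were 3.33% of all genes. Unc93b1, which carries nucleic acid-sensing receptors to endosomes, passed in both comparisons without deficient library 232614 (limma adjusted p = 0.0459 and 0.0230, beside 0.240 and 0.142 with all libraries).

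**Figure D5:**
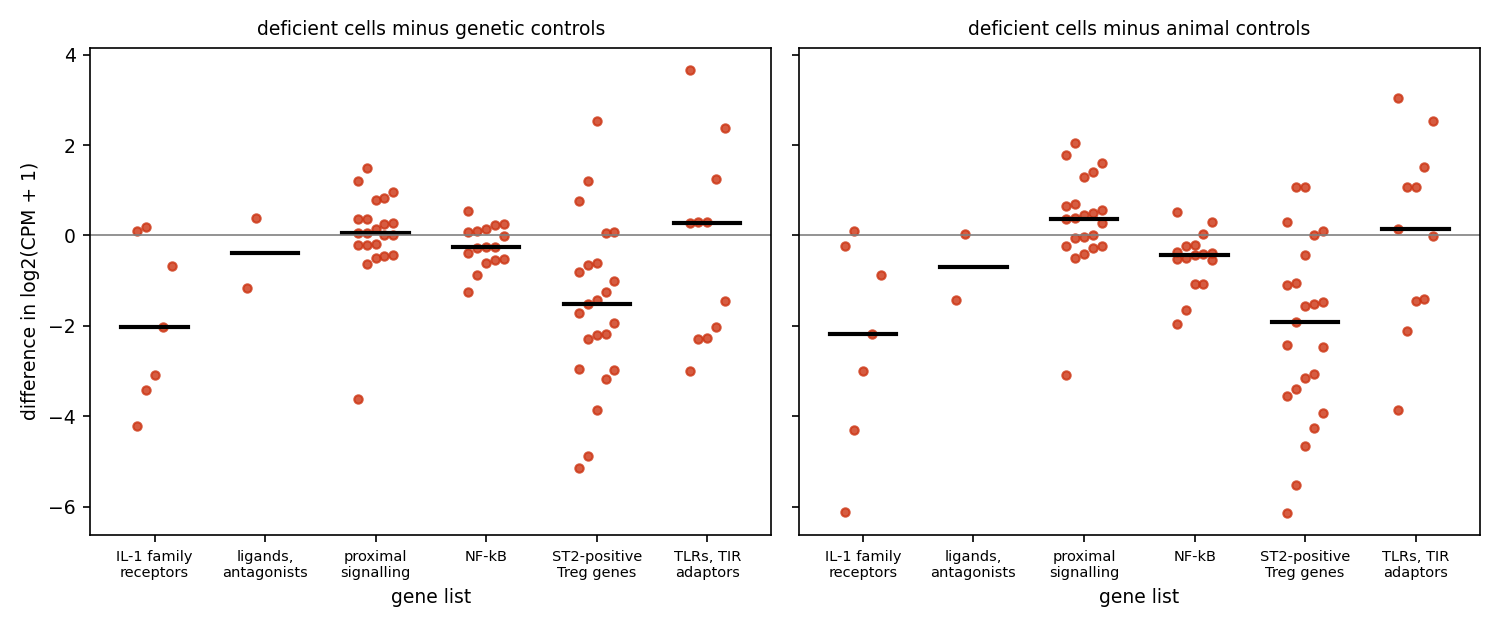
Difference in log2(CPM + 1) for each gene (points) and the median (bar) of the receptors and 5 lists, for deficient cells minus genetic controls (left) and minus animal controls (right). The bars stand at 0.05 and 0.37 for proximal signalling, at -1.51 and -1.91 for the genes of ST2-positive Treg cells and at -2.03 and -2.19 for the receptors, and the single low point of proximal signalling is Irak3.

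The genes whose pattern over the 9 libraries was most like each of the pair were ranked by Pearson correlation of log2 CPM. The ranking took 8502 genes with at least 10 CPM in their highest group, leaving out predicted genes, numbered clone names and antigen receptor segments. It is a description over libraries that share groups and mice. For Il1rl1 they were Icos (r = 0.985), Samhd1 (0.977), Fxyd5 (0.976), Lgals1 (0.975), Ahnak (0.974), Fam160a1 (0.973), Il9r (0.972) and Cd82 (0.972). For Il1r2 they were Nt5e (r = 0.986), Ass1 (0.985), Il9r (0.984), Cxcr6 (0.983), Psen2 (0.981), Capg (0.981), Nrp1 (0.980) and S100a4 (0.978). Il9r was the gene common to both sets of 8. Il1r2 ranked 23 for likeness to Il1rl1 (r = 0.955), Il18r1 ranked 42 (r = 0.935), Il18rap 806 (r = 0.628), Il1rap 4269 (r = -0.0396) and Sigirr 4576 (r = -0.0887). In log2(CPM + 1), which compresses the lowest values, Il1r2 ranked 2 for Il1rl1 (r = 0.982) and Il1rl1 ranked 1 for Il1r2.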

How the data were processed

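RNA of sorted Treg cells was sequenced in 9 libraries, 3 per group. Per the submitters' processing notes, bcl2fastq 1.8.4, STAR 2.4.0h and mm10 were used, and limma is named without a version or role; the counting tool, annotation and gene filter were not given in the sources used here. Values in the authors' deposited table are on a log2 scale. They were read as log2 CPM because the linear values of a library sum to between 999252 and 999256. All libraries share the same lowest (-7.77) and highest (13.42) value, as quantile normalization gives, a step that no source used here states. Total counts, and so depth and counting intervals, are unknown. The lowest value was held by 8.00% to 11.4% of genes, depending on the library.

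After 4 duplicate rows were dropped from 13702, limma-trend (limma 3.58.1, R 4.3.3) was fitted to 13698 genes in all 9 libraries, with no filter or pseudocount, each contrast tested in both directions and p-values adjusted by Benjamini-Hochberg across the whole table (FDR under 0.05), and was tested on simulated data. Exact permutation of 3 against 3 libraries cannot go below p = 0.1 and was not used. Libraries of a group come from separate mice. Deficient cells and animal controls come from the same mice, so these libraries are paired by animal; deviations of same-mouse libraries had correlations of 0.0483, 0.0202 and 0.0170 over 7550 genes. The main fit has no mouse term.

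Named genes are the receptors, up to 6 called members per list, and the 8 genes most alike to Il1rl1 and to Il1r2; uncalled list members were named after their values were seen. The receptors and lists were chosen with earlier results of these data known. Alternatives were no trend, log2(CPM + 1), a filter, median-centring, the 6 libraries compared, leaving out each library and a mouse block. Coordinates are 1-based from GENCODE M21 (GRCm38).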

Additional observations from a re-analysis of the deposited data

How the results depend on the processing

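With all libraries 119 genes differed between deficient cells and genetic controls, 122 between deficient cells and animal controls and 5 between the control groups (limma, FDR under 0.05). Without 1 library these counts ran from 48 to 93, from 58 to 115 and from 4 to 10. On the 6 libraries compared alone they were 22, 52 and 3. Without both genetic control 8619 and animal control 232614, a choice made after the data were seen, they were 21, 27 and 1. Without the trend, 32 genes differed between the control groups. With the replicate block as a random mouse term the counts were 118, 148 and 5, and with the mouse as a fixed term in 6 libraries 0 of 13698 genes differed between deficient cells and animal controls (1395 at an unadjusted p under 0.05); the random block changed no other call named here except Ccr8, which passed against the animal controls (limma adjusted p = 0.0477). On the deposited log2 scale the differences of Il1rl1 (-9.04 and -9.97) and Il1r2 (-9.40 and -11.4) depend on the lowest values; in log2(CPM + 1) they were -3.43, -4.30, -4.21 and -6.12. Depth is unknown, so values near the lowest show no more than a step of the scale.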
